A study of Mus musculus with 8 samples.

Results

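The glutamate and GABA receptor genes taken here were 38 named members of the 21938 mouse protein-coding genes, 24 for glutamate receptors and 14 for GABA receptors. The rule named them and used no measured value, although the list was drawn up with earlier results of these data known. It does not hold every subunit gene. ATAC-seq, which tags accessible DNA with sequencing adapters through the transposase Tn5, had been used to profile wild-type (WT) and *Chd4-CMko* mouse hearts at E10.5. A differential peak was given to a member if the nearest transcription start site (TSS) of a protein-coding transcript was the member's, or if the peak lay within 10 kb of its gene body. By this rule the members held 61 of the 12991 peaks with more signal in *Chd4-CMko* hearts (gained peaks) and 6 of the 2745 peaks with more signal in WT hearts (lost peaks), or 67 of 15736 in all.

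There were 8 samples, 4 WT and 4 *Chd4-CMko*. *Chd4* encodes the remodelling ATPase of the NuRD complex, and it was deleted in cardiomyocytes by Cre recombinase under the *Tnnt2* promoter, so that the other cells of the heart kept the gene. The labels give no allele for either group beyond these names. The study's methods describe *Tnnt2* Cre/+ and floxed *Chd4* alleles for its crosses and littermate controls. Whole dissected hearts were used, with no sorting of cardiomyocytes, and each library came from 40000 viable cells of pooled hearts, 3 per pool by the study's methods and its design text (the extract protocol in the labels has 4). The lists gave 1 score per peak and no value per sample, so no difference between genotypes had a replicate error or a test, and the lists did not show the read depth of a sample. Intervals for shares are Wilson 95% intervals and cover counting error only. A larger share of a cell type and a larger accessibility per cell cannot be told apart in whole hearts. *Chd4* itself had 2 gained peaks, 1 of them within 3 kb of its own TSS, and 0 lost peaks. With no value per sample, the deletion could not be checked.

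Glutamate is the main excitatory and GABA the main inhibitory transmitter of the brain. AMPA, kainate and NMDA receptors are glutamate-gated cation channels assembled from several subunits, and GABA-A receptors are chloride channels. Metabotropic glutamate receptors and the GABA-B receptor act through G proteins. Most of these genes are best known from neurons, which in the heart sit in ganglia formed by cells of the neural crest, and their products have no established part in the contraction of heart muscle.

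Gained peaks lay at 22 of the 38 members (57.9%, interval 42.2 to 72.1) and at 38.2% of all protein-coding genes. Lost peaks lay at 6 members (15.8%, interval 7.44 to 30.4) and at 11.1% of all genes. Both kinds were found at 4 members (*Grik1*, *Grik2*, *Grik4* and *Gabrg3*), against 6.61% of all genes, lost peaks alone at 2 (*Gria3* and *Gabra6*), and neither kind at 14. Members with 3 or more gained peaks numbered 11 and held 48 of the 61, where 8.2% of all genes had as many. That share of all genes is not matched for gene length. The families are set beside the number of genes expected if each had the share of all protein-coding genes in its band of length (the length bands are described further on). Kainate receptor genes had a gained peak in 5 of 5 (3.42 by the length bands), GABA-B receptor genes in 2 of 2 (1.06) and NMDA receptor genes in 5 of 7 (3.55). Metabotropic glutamate receptor genes had one in 4 of 7 (4.01), AMPA receptor genes in 1 of 4 (2.86) and the alpha, beta, gamma and delta GABA-A genes in 3 of 10 (5.72). None of these differences was tested.

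**Figure D1:**
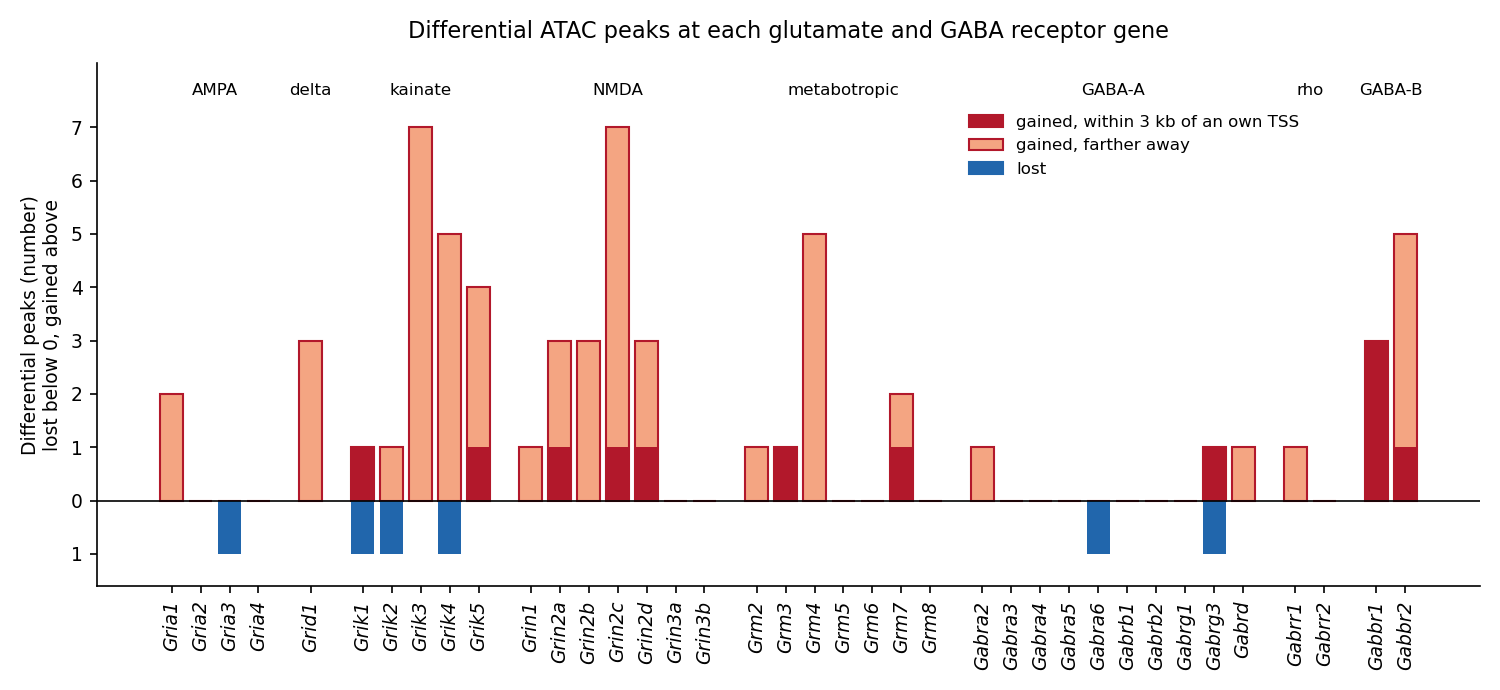
Number of differential ATAC peaks at each of the 38 members, grouped by receptor family. Gained peaks are drawn above 0 (dark red within 3 kb of an own TSS, light red farther away) and lost peaks below 0. *Grik3* and *Grin2c* had 7 gained peaks each, 14 members had none of either kind, and no member had more than 1 lost peak.

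Gained peaks at start sites were more frequent among the members than among all genes in the plain counts. A gained peak within 3 kb of an own TSS, called a promoter peak here, was present at 10 of 38 members (26.3%, interval 15.0 to 42.0) against 9.87% of all genes, and one within 1 kb at 9 members (23.7%, interval 13.0 to 39.2) against 7.75%. The 10 were *Gabbr1*, *Gabbr2*, *Gabrg3*, *Grik1*, *Grik5*, *Grin2a*, *Grin2c*, *Grin2d*, *Grm3* and *Grm7*. A lost promoter peak was present at 0 of 38 members (interval 0 to 9.18%) and at 0.811% of all genes. The sequences of the promoter peaks follow, since they are the gained member peaks closest to an own TSS. All sequences are the plus strand of GRCm38 (the same build as mm10) from RefSeq's copy of that assembly, 5′ to 3′. Bases of an annotated UTR at the edge of a peak are left out, and capitals mark any of 8 motif strings, which are spelled out further on.
Grin2d promoter peak, chr7:45866048-45866198: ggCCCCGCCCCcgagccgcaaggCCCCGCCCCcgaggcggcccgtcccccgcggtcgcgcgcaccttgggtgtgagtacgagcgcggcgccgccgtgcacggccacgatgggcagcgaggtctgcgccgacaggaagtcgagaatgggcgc
Grin2c promoter peak, chr11:115267244-115267323: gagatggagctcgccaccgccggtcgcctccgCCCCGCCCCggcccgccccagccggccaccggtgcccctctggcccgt
Grin2a promoter peak, chr16:9993016-9993166: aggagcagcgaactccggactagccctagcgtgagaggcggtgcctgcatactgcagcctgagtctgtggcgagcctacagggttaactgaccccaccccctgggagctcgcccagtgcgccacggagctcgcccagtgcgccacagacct
Grik5 promoter peak, chr7:25073123-25073273: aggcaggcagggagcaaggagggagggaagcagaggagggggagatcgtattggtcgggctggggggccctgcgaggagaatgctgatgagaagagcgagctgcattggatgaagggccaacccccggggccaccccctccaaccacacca
Grik1 promoter peak, chr16:88290268-88290418: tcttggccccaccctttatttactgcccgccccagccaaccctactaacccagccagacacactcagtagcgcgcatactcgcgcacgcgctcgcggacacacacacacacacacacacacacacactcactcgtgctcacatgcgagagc
Grm3 promoter peak, chr5:9726077-9726227: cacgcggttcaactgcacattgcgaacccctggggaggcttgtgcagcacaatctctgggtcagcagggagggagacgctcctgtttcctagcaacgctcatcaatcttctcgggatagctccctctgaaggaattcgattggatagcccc
Grm7 promoter peak, chr6:110645359-110645509: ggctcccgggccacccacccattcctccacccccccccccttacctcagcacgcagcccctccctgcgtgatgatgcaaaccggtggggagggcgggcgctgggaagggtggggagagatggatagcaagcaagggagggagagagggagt
Gabrg3 promoter peak, chr7:57387189-57387307: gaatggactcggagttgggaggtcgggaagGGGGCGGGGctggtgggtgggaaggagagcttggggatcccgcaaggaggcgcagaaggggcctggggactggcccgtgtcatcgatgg
Gabbr1 promoter peak at the upstream TSS, chr17:37046452-37046567: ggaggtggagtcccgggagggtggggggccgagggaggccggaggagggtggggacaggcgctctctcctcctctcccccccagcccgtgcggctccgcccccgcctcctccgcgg
Gabbr1 promoter peak between its TSSs, chr17:37049997-37050147: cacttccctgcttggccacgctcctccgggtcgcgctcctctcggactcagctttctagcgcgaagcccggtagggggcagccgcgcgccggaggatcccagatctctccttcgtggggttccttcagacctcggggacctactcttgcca
Gabbr1 promoter peak at the downstream TSS, chr17:37050544-37050630: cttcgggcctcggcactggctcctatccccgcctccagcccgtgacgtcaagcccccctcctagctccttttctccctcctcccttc
Gabbr2 promoter peak, chr4:46991874-46991959: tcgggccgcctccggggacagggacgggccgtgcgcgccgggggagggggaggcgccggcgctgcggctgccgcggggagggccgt

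The promoter peaks were GC-rich, with a mean of 69.7% (SD 8.50%, n = 12 peaks) against 57.6% (SD 8.38%, n = 49) for the gained member peaks farther from an own TSS. Over the whole gained list the means were 66.3% (SD 9.98%, n = 2323) within 3 kb of a coding TSS and 54.6% (SD 6.54%, n = 10668) beyond it. The ratio of observed to random CpG was 0.74 on average in the 12 promoter peaks and 0.276 in the 49 others. Peaks of 1 list are neighbours on the genome in places and are not replicates. Around the start sites themselves (500 bp either side, mean over the coding TSSs of a gene), GC content had a median of 63.1% in the 10 members with a gained promoter peak, between 51.7% and 66.4%. It had a median of 55.7% in the other 28, between 38.7% and 76.7%, so that the ranges overlapped. *Grid1* and *Grik3*, with 76.7% and 74.1%, had the most GC-rich start sites of the members, and neither had a gained promoter peak. Among all genes with a gained promoter peak the median was 58.0%, and among all genes without one 53.8%.

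The authors' score ranked peaks within the gained list, whose median was 62.5. Gained member peaks had the same median, with a range of 25 to 410.5, and 8 of the 61 were in the top 10% of the list. Of those 8 peaks, 7 were within 3 kb of a coding TSS, 5 of them of the member's own. The 12 promoter peaks had a median score of 116 (41.5 to 410.5) and the 49 others 59.5 (25 to 323). In the whole list the medians were 141 near a coding TSS and 55.5 away from one, the same order. The highest score of a member was that of the *Grin2d* promoter peak, rank 81 of 12991.

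**Figure D2:**
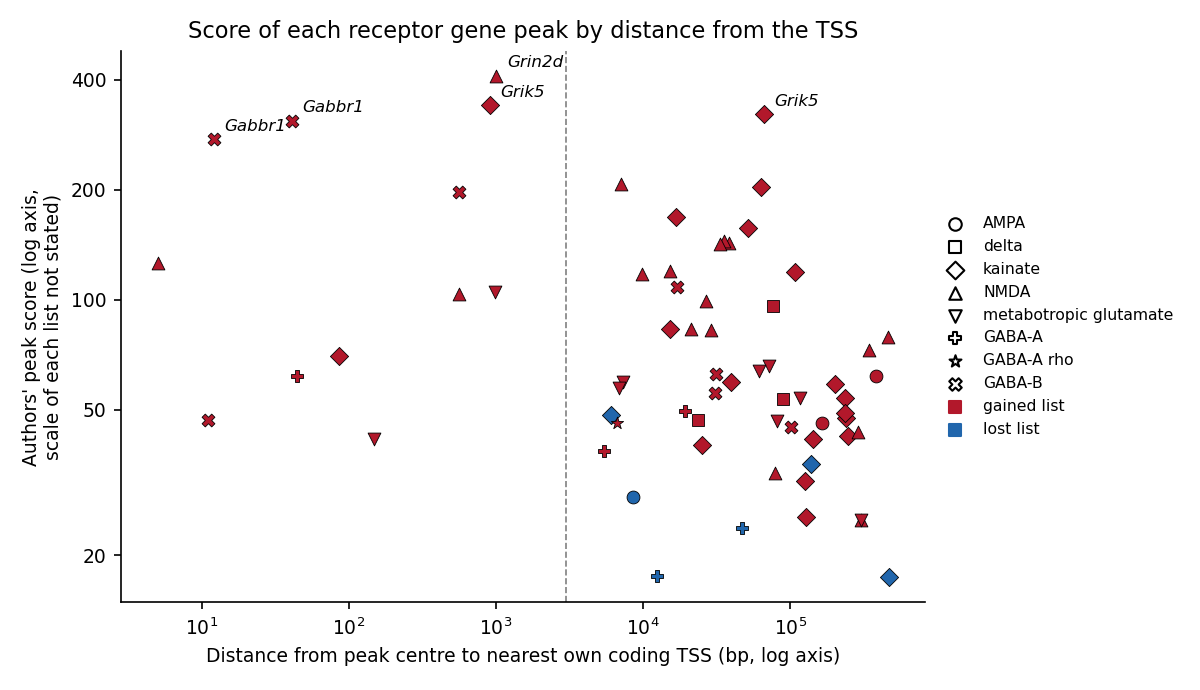
Authors' score of each of the 67 member peaks (log axis) against the distance of its centre from the nearest own coding TSS in bp (log axis), with marker shape for the receptor family, red for the gained and blue for the lost list, and a dashed line at 3 kb. The 5 highest scores are named; 4 of them lie within 3 kb of an own TSS, and no lost peak lies left of the line. The lists may have different score scales.

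AMPA receptor genes, whose products carry fast excitatory currents, held 2 gained peaks and 1 lost peak. A gained peak lay at 1 of the 4 genes (2.86 by the length bands) and a lost peak at 1 (1.64). *Gria1* (GluA1) had 2 gained peaks, 1 in intron 2 with a score of 46.0 and 1 lying 386038 bp upstream with a score of 62.0, outside the 10 kb flank. *Gria3* (GluA3) had no gained peak and 1 lost peak, 8535 bp upstream of a TSS, with a score of 28.9, which placed it 30.1% of the way up the lost list. *Gria2* and *Gria4* had none. The 4 genes had a median length of 298 kb and 0.85 gained peaks per Mb of gene body and flank, against 7.26 over all protein-coding genes. Comparisons per Mb, here and further on, are not matched for gene length.

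*Grid1* encodes GluD1, an ionotropic-type subunit that organises synapses. Its 3 gained peaks all fell in intron 2, at 23715, 76646 and 88914 bp from the TSS, in a gene of 763 kb. The middle one had the highest score, 96.0, and held a GATA and an E-box string. The other 2 had scores of 47.0 and 53.5, below the median of the list.

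Kainate receptor genes held 18 gained and 3 lost peaks. A lost peak lay at 3 of the 5 genes (1.93 by the length bands). The family had 6.31 gained peaks per Mb, against 7.26 over all protein-coding genes. GluK1 to GluK3 (*Grik1* to *Grik3*) can form channels without other subunits, while GluK4 and GluK5 (*Grik4*, *Grik5*) need one of these. The 2 genes of the second kind and *Grik3* held 16 of the 18 gained peaks.

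*Grik5* (chr7:25009849-25072346) held 4 gained peaks. The promoter peak, 906 bp upstream of a TSS, had a score of 341 (rank 191). A peak in intron 11 had a score of 83.0. The other 2 lay downstream of the gene, within its 10 kb flank, and are counted but not described here.

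*Grik4* (chr9:42518135-42944493) had 5 gained peaks and 1 lost peak, all in introns. Counted from the 5′ end of the gene, the gained peaks lay at 16729, 51531, 96160, 110589 and 372999 bp, the first 4 in intron 1. The 2 closest to the 5′ end had scores of 168.5 and 157.5, in the top 15% of the list. The others had 59.5, 40.0 and 49.0. The lost peak, in intron 3, was 6009 bp from the downstream TSS of the gene and had a score of 48.5, the highest of the 6 lost member peaks and 72.9% of the way up the lost list. It was the only lost member peak at or above the median of that list, 36.8. The highest-scoring gained peak of the gene and its lost peak are shown, with GC contents of 51.0% and 48.3%, a gap smaller than the SD over the peaks of either list. The other 4 gained peaks had 58.3% to 66.9%.
Grik4 gained peak in intron 1, chr9:42927689-42927839: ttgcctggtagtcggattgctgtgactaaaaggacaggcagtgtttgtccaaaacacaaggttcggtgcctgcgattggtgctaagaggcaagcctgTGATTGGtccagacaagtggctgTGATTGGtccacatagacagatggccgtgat
Grik4 lost peak in intron 3, chr9:42802615-42802765: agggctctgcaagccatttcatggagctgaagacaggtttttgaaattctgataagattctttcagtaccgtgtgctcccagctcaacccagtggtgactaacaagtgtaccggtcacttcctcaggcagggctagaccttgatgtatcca
The gained one held the NFY string 2 times, both on the minus strand, and the lost one held none of the 8 strings.

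*Grik3* (chr4:125490700-125714173) had 7 gained peaks, a number exceeded by 124 genes, and none near its TSS. Of these, 2 lay 126284 and 128719 bp upstream, 2 in introns 1 and 3, and 3 between 12136 and 24432 bp beyond the 3′ end. Only the peak in intron 1 had a score above the median of the list (119), and the other 6 ranged from 25.5 to 54.0. *Grik1* had a gained peak 85 bp upstream of a TSS with a score of 70.0 and a lost peak in intron 14, 138792 bp from a TSS, with a score of 35.5. *Grik2* had 1 gained peak 200718 bp upstream (score 59.0) and 1 lost peak 289854 bp beyond its end (score 17.4), neither inside the gene or its flank.

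**Figure D3:**
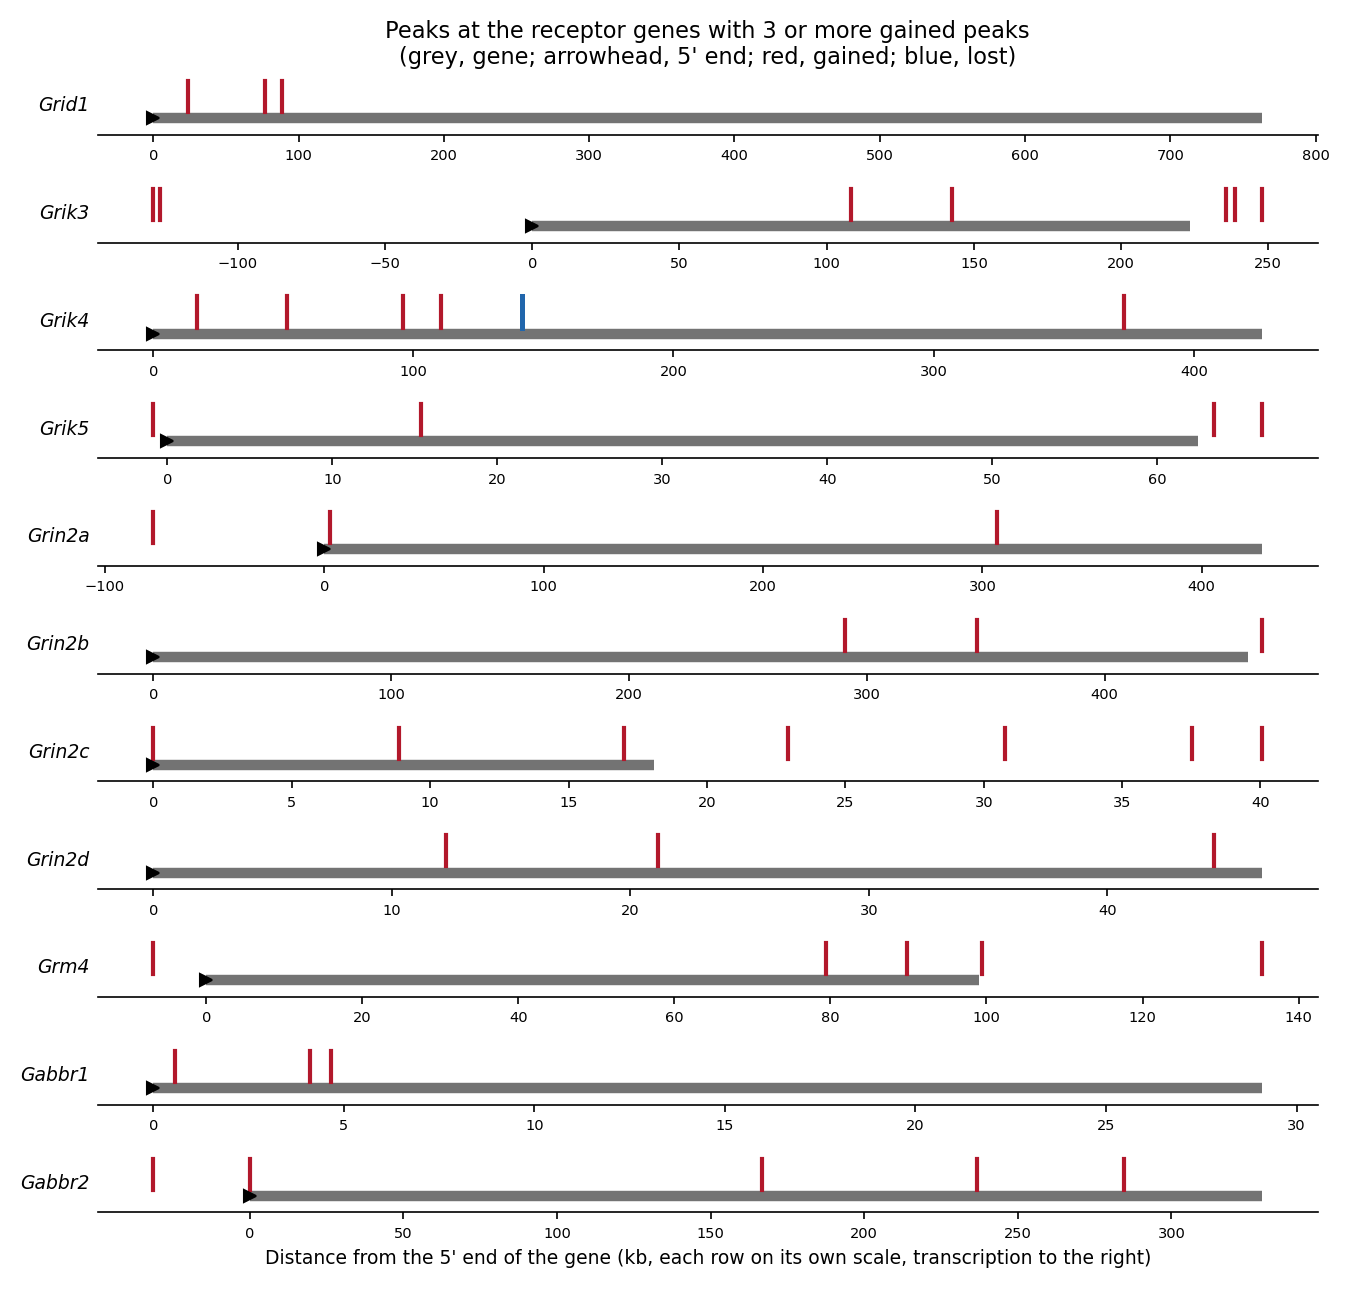
Position of the gained (red) and lost (blue) peaks at the 11 members with 3 or more gained peaks, in kb from the 5′ end of each gene (arrowhead), with the gene body in grey and transcription to the right. Each row has its own scale. The 3 peaks of *Gabbr1* lie in the 5′ part of the gene, the 7 of *Grin2c* run from its 5′ end to 40068 bp beyond that point, and the peak of *Grik3* closest to its 5′ end is 108146 bp from it.

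NMDA receptor genes held 17 gained and 0 lost peaks at 5 of 7 members. By the length bands, 1.61 of the 7 would have a lost peak. The family had 9.92 gained peaks per Mb, against 7.26 over all protein-coding genes. The NMDA receptor joins the obligatory GluN1 subunit (*Grin1*) with GluN2 subunits (*Grin2a* to *Grin2d*), which bind glutamate, or with GluN3 subunits, which bind glycine. All 4 GluN2 genes had 3 or more gained peaks, *Grin1* had 1, and the GluN3 genes *Grin3a* and *Grin3b* had none.

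*Grin2c* (chr11:115249169-115267243), at 18.1 kb the shortest of the GluN2 genes, had 7 gained peaks. One covered its most upstream TSS, 5 bp from the centre, with a score of 126.5. One in exon 5 had the highest score of the gene, 207.5, in the top 10% of the list. Another overlapped exon 15 (120) and 4 lay between 4766 and 21919 bp beyond the 3′ end, with scores of 83.5, 82.5, 144.5 and 143. These 4 and the exon 15 peak were also within 10 kb of *Tmem104*. The peaks over the TSS and in exon 5 were within 10 kb of *Fdxr*. The TSS of *Grin2c* was the nearest to all 7. All 7 were above the median score of the list. Neighbouring centres were 2554 to 8871 bp apart. The exon 5 peak is shown because it had the highest score of the gene.
Grin2c gained peak in exon 5, chr11:115258302-115258452: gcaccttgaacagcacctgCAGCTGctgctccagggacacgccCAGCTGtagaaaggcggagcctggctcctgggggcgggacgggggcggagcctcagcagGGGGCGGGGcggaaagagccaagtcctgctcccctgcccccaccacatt

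*Grin2d* (chr7:45831883-45878378) had 3 gained peaks, all inside the gene. The promoter peak overlapped exon 2, 1006 bp downstream of a TSS that itself lies within the gene; the peak was 12255 bp from the 5′ end of the gene. Its score of 410.5 was the highest of the members and its GC content was 78.1%. A peak in intron 6 had a score of 118 and one in exon 13 had 142.5, the latter 2966 bp from the TSS of *Grwd1*, a neighbouring gene. *Grin2a* had a promoter peak 558 bp upstream of a TSS in intron 2 (score 103.5), a peak in intron 5 (25) and one 78576 bp upstream (33.5). *Grin2b* had none near a TSS. It had 2 peaks in introns 4 and 5, with scores of 43.5 and 73.0, and 1 peak 5933 bp beyond its 3′ end, with a score of 79.0, that lay wholly in annotated repeats. *Grin1* had 1 peak near its 3′ end (score 99), whose nearest coding TSS, at 2396 bp, was that of *Lrrc26*.

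Metabotropic glutamate receptor genes held 9 gained and 0 lost peaks at 4 of 7 members. By the length bands, 2.04 of the 7 would have a lost peak. The family had 2.82 gained peaks per Mb, against 7.26 over all protein-coding genes. *Grm2* and *Grm3* encode the group II receptors, which lower cyclic AMP. *Grm3* had 1 gained peak, 982 bp upstream of its only TSS, with a score of 105. *Grm2* had 1 peak 7290 bp upstream (59.5). Of the group III genes, *Grm4* had 5 gained peaks with close scores, 46.5 to 66.0, at 6814 bp upstream, in intron 4, in exon 8 and at 318 and 36265 bp beyond the 3′ end. *Grm7*, the longest member at 922 kb, had a promoter peak 147 bp upstream of a TSS with a low score (41.5) and a peak in intron 2 (25). *Grm6*, known from bipolar cells of the retina, *Grm8* and the group I gene *Grm5* had none.

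GABA-A genes for the alpha, beta, gamma and delta subunits, which form the chloride channels of fast inhibition, held 3 gained and 2 lost peaks. A gained peak lay at 3 of the 10 genes (5.72 by the length bands) and a lost peak at 2 (2.7), with 1.34 gained peaks per Mb against 7.26 over all protein-coding genes. *Gabrg3* (gamma 3) had a gained peak over its most upstream TSS, 44 bp from the centre, with a score of 62.0, and a lost peak in intron 2 at 12480 bp, with a score of 17.6, which lay wholly in annotated repeats. *Gabra6* (alpha 6) had only a lost peak, 47058 bp upstream, with a score of 23.8. *Gabra2* had 1 gained peak 5450 bp upstream (38.5) and *Gabrd* 1 gained peak 5965 bp beyond its end (49.5), the nearest TSS of the latter being that of *Prkcz*. *Gabra3*, *Gabra4*, *Gabra5*, *Gabrb1*, *Gabrb2* and *Gabrg1* had none. Of the 10, 8 lie in 3 clusters, and *Gabrd* and *Gabra3* lie apart from them. The stretch of 1.4 Mb on chromosome 5 from *Gabrg1* to *Gabrb1*, with 4 members, held 1 gained peak and no lost peak. The stretch of 0.794 Mb with *Gabrg3* and *Gabra5* on chromosome 7 held 1 of each. That of 0.323 Mb with *Gabra6* and *Gabrb2* on chromosome 11 held 1 lost peak. The lost *Gabrg3* and *Gabra6* peaks are shown because both held the right half-site string of REST, a repressor of neuronal genes.
Gabrg3 lost peak, chr7:57374316-57374466: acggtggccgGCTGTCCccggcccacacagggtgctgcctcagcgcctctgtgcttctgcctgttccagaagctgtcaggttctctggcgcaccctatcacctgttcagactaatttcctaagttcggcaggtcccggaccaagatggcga
Gabra6 lost peak, chr11:42368055-42368205: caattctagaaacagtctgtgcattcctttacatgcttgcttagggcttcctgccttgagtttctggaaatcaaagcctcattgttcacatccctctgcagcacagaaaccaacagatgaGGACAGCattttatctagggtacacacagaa

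The rho genes encode GABA-gated channel subunits known from the retina. *Gabrr1* had 1 gained peak 6674 bp upstream (score 46.0) and *Gabrr2* had none.

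Both GABA-B receptor genes held gained promoter peaks. GABA-B is an obligate dimer in which the product of *Gabbr1* binds GABA and that of *Gabbr2* couples to the G protein. *Gabbr1* (chr17:37045966-37075067) had 3 gained peaks, all within 1 kb of an own TSS and all in the top 10% of the list. A peak over an upstream TSS had a score of 309.5 (rank 303), one over a downstream TSS 275.5 (rank 458), and one between them, 559 bp upstream of the latter, 197. Alternative start sites of *Gabbr1* are known to give receptor isoforms that differ at the N-terminus. *Gabbr2* (chr4:46662305-46991873) had 5 gained peaks. That over its most upstream TSS, 11 bp from the centre, had a score of 47.0, below the median of the list and 34.1% of the way up it, with the highest GC content of all member peaks (82.8%). The other 4 had scores of 45.0 to 108.5, 3 in introns 3, 7 and 13 and 1 at 31441 bp upstream. The pair together had 17.6 gained peaks per Mb, the highest of the 8 families, on 2 genes, against 7.26 over all protein-coding genes.

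Gene length went with these counts. The members had a median length of 197 kb (6.48 to 922) and all protein-coding genes one of 17.4 kb. In genes up to 30 kb, 5 of 8 members and 29.7% of all genes had a gained peak. Between 30 and 100 kb it was 4 of 7 and 46.8%. Between 100 and 300 kb the members fell below, with 3 of 9 and 66.6%, and over 300 kb it was 10 of 14 and 76.2%. If each length band of the members had the share of all genes in it, 22.3 members would have a gained peak, and 22 had one. The count of members with a gained peak was therefore near the background for genes of their length. For gained promoter peaks the same sum gave 5.06 members, and 10 had one. For lost peaks it gave 11.2 members and 6 had one, from 1 of 8, 0 of 7, 1 of 9 and 4 of 14 members against 5.39%, 14.6%, 33.3% and 48.5% of all genes in the same bands. These sums are a description and were not tested. The mean number of gained peaks per gene was 1.62 for members and 0.474 for all genes up to 30 kb. Between 30 and 100 kb the means were 1.86 and 0.889. Members had the lower mean in the longer bands, with 1 and 1.74 between 100 and 300 kb and 1.86 and 2.83 over 300 kb. Per Mb of gene body and 10 kb flank, members held 4.46 gained and 0.372 lost peaks (48 and 4 peaks in 10.8 Mb), and all protein-coding genes 7.26 and 1.34.

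**Figure D4:**
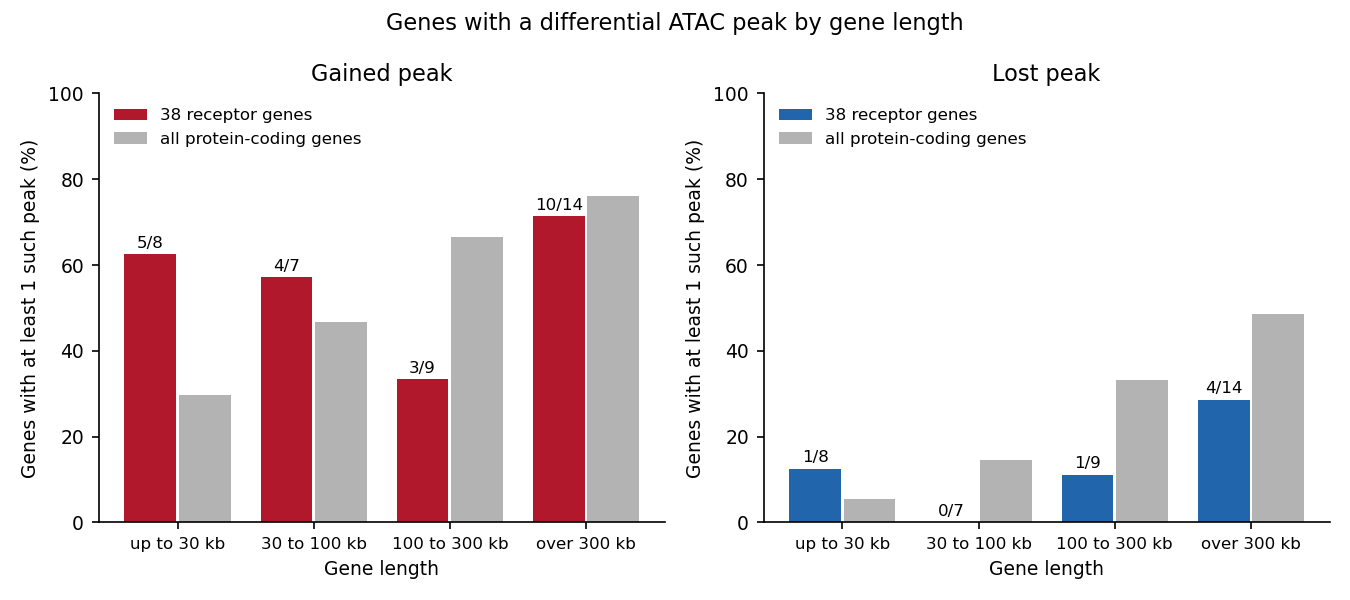
Share of genes (%) with at least 1 gained peak (left) or lost peak (right) in 4 bands of gene length, for the 38 members (coloured, with the count over the number of members) and all 21938 protein-coding genes (grey). Members up to 30 kb had gained peaks in 5 of 8 against 29.7% of all genes, and those of 100 to 300 kb in 3 of 9 against 66.6%.

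Gained peaks made up 91.0% of the member peaks (interval 81.8 to 95.8) and 82.6% of all listed peaks. Of the 61 gained member peaks, 34 lay in a gene body, 23 of them in introns, and 14 upstream and 13 downstream of the gene. Their median distance to an own TSS was 33219 bp, and 27 were more than 50 kb from one. Within 3 kb of any coding TSS were 16 of 61 (26.2%, interval 16.8 to 38.4), against 17.9% of the gained list. For 7 of the 61 the nearest coding TSS was that of another gene, and 13 lay outside the body and flank. At least 50% repeat bases were found in 5 (8.2%) of the member peaks and in 10.2% of the gained list. The 6 lost member peaks were all more than 3 kb from an own TSS, 3 of them in introns, with a mean GC content of 48.8% (SD 7.07%), and the lost list had 50.5% (SD 5.85%, n = 2745).

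Motif strings were counted on both strands, with no mismatch, each peak once. The strings were TCAGCACC for the left and GGACAGC for the right half-site of REST, TAAAAATA for MEF2, AGATAAG for the GATA factors, ACATTCC for TEAD, CCAATCA for NFY, GGGGCGGGG for KLF/SP and CAGCTG for the E-box, and none of them contains another. Among the 61 gained member peaks, the E-box string was in 10 (16.4%, against 13.2% of the gained list), KLF/SP in 8 (13.1% against 7.71%), NFY in 6 (9.84% against 11.8%), the right REST half-site in 5 (8.2% against 4.57%), TEAD in 4 (6.56% against 3.76%), GATA in 2 (3.28% against 5.45%), and MEF2 and the left REST half-site in 1 each (1.64% against 1.76% and 1.64%). None of the 8 strings was in 36 of the 61. In the 12 promoter peaks KLF/SP was the only string found, in those of *Grin2c*, *Grin2d* and *Gabrg3*, and it was in 19.0% of all gained peaks within 3 kb of a coding TSS. In the 6 lost member peaks the right REST half-site was in 2, and it was in 5.54% of the lost list. Such matches are letters in a window and not binding sites.

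Other genes of glutamate and GABA signalling also held gained peaks, at 27 of 43, where the share of all genes in each length band gave 21.8. A gained promoter peak was present at 12, against 9.87% of all genes and 5.13 by the length bands, and a lost peak at 12, against 11.1% of all genes and 8.82 by the length bands. Transporters that take up the transmitters had gained peaks in 6 of 8 genes (3.97 by the length bands) and auxiliary subunits of the receptors in 10 of 14 (7.33). Postsynaptic scaffold genes had them in 9 of 13 (7.31), and genes for transmitter synthesis and vesicle loading in 2 of 8 (3.23). Among the 12 genes with a gained promoter peak were *Slc17a7* and *Slc32a1*, the vesicular carriers for glutamate and for GABA, *Slc1a6*, which takes up glutamate, and *Cacng4*, *Cacng7*, *Cacng8*, *Cnih3* and *Shisa7*, which encode auxiliary subunits. Also among them were the scaffold genes *Dlg3*, *Shank1* and *Shank3*. *Homer1*, another scaffold gene, was the only one of the 43 with a lost promoter peak.

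Channel genes of other families had gained peaks more often for their length than the receptor genes in the plain counts. The potassium channel genes (92) had gained peaks in 73, where the length bands gave 41.2, and the calcium, sodium and pacemaker channel genes (36) in 29, where they gave 19.9. Gained promoter peaks were at 30 of 92 (10.1 by the length bands) and 13 of 36 (4.63), beside 10 of 38 receptor genes (5.06). Lost peaks were at 11 of 92 (15.6 by the length bands) and 9 of 36 (9.23), beside 6 of 38 receptor genes (11.2). Per Mb the 2 sets held 9.81 and 12 gained peaks, beside 4.46. No test of these differences was made.

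Markers of cells that a dissected heart can hold were counted in the same way, as peaks and not as levels. Neuron markers had a gained peak in 11 of 14 genes (the length bands gave 7.02), with promoter peaks at *Elavl3*, *Elavl4*, *Nefl* and *Nefm* (1.65 genes by the length bands), and a lost peak in 3 (2.82). Neural crest and glia markers had a gained peak in 3 of 6 (1.78 by the length bands), with a promoter peak at *Sox10* (0.511 genes by the length bands). Cardiomyocyte markers had one in 8 of 12 (4.57), with promoter peaks at *Nppa* and *Tnni3* (1.19). Endothelial markers had one in 3 of 4 (2.07), with no promoter peak (0.481). A lost peak lay at 1 gene each of the neural crest and glia (0.324 by the length bands), cardiomyocyte (1.45) and endothelial (0.77) lists. Erythroid markers had a gained peak in 0 of 4 (1.19) and a lost peak in 4 of 4 (0.216). Lost promoter peaks were at *Alas2*, *Hba-x* and *Hbb-y*, against 0.811% of all genes. More marker genes had a gained peak than the length bands gave in all of these lists but the erythroid one, which was not tested. Whether the share of any of these cells differed between the pools was not tested.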

How the data were processed

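ATAC-seq was performed by the authors on nuclei of pooled E10.5 hearts, with 4 WT and 4 *Chd4-CMko* samples. Reads were aligned to mm10 with BWA-MEM, peaks were called with HOMER (version 4.10.3), a 2-fold limit defined differential peaks, and ChIPseeker (version 1.20.0) was used for annotation. Filters on reads and duplicates, any correction for the Tn5 offset and the pooling of libraries within a genotype are not given in the sources used here; each can change which peaks pass. The value analysed was the peak score deposited by the authors in each of 2 lists. Its scale is not stated, and it moved in steps of 0.50 in the gained and 0.22 in the lost list, so scores were compared within a list only, apart from 1 alternative that set a common limit. All peaks but 1 were 151 bp wide, and no gained peak overlapped a lost one.

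Coordinates (1-based) were used with the GRCm38 sequence and GENCODE M21 (58745 protein-coding transcripts of 21938 genes) in Python 3.11.15 with pandas 2.3.3 and scipy 1.17.1. The interval, nearest-TSS and motif steps were tested on simulated data. The members, the pathway and marker lists and the motif strings were chosen with earlier results of these data known. All members are accounted for, and those with 3 or more gained peaks, a lost peak, a peak within 1 kb of an own TSS or 1 of the 5 highest scores are described one by one. Pathway and marker genes are named only where a peak lay within 3 kb of an own TSS. Some results that this rule covers are not reported here. The 9 alternatives changed the assignment, flank, promoter window, transcript set, score limit or repeats.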

Additional observations from a re-analysis of the deposited data

How the results depend on the processing

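No paired analysis was possible because the lists hold no value per sample, and for the same reason no sample could be left out. With only the peaks at or above the median score of each list, members with a gained peak came to 36.8%, members with a lost peak to 2.63%, gained peaks to 31, lost peaks to 1, the gained share to 96.9%, GC content to 63.9% and gained peaks per Mb to 2.51. That setting leaves fewer peaks by construction. With peaks of either list kept only from a score of 36.8, the median of the lost peaks, members with a lost peak came to 2.63%, lost peaks to 1 and the gained share to 98.2%; this assumes a shared score scale. The other 63 values, under assignment by nearest TSS only or by gene body only, flanks of 0 and 25 kb, a 1 kb promoter window, basic transcripts only, no repeat-covered peaks or these score limits, stayed within the interval of the reported share or mean, or within 1.5 times the reported number. Assignment by nearest TSS alone gave no value per Mb. With 6 lost member peaks and no value per sample, no difference between families or genotypes in lost peaks was tested here.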
